A study of Mus musculus with 11 samples.

Results

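The 10 genes described here encode enzymes of triglyceride assembly: the glycerol-3-phosphate acyltransferases Gpam and Gpat4, the acylglycerophosphate acyltransferases Agpat1, Agpat2 and Agpat3, the lipins Lpin1, Lpin2 and Lpin3, and the diacylglycerol acyltransferases Dgat1 and Dgat2. They were chosen by name, for the reaction their products catalyse, and all 10 were found among the 22196 genes of the deposited transcript estimates. RNA of the inguinal mammary gland was sequenced as 6 libraries labelled Knockout (Tsc1-fl/fl; Adipoq-Cre-Tg/+) and 5 labelled Wild-Type (Tsc1-fl/fl; Adipoq-Cre-+/+), from mice on normal chow whose tissue was taken 16 days after delivery; the labels also give PND16.5 for every library. Lactation itself is not stated there. Both groups carry the floxed alleles of Tsc1, which encodes a subunit of the inhibitor of mTORC1 signalling, and the groups differ in the Cre transgene. Deletion of Tsc1 and the presence of Cre therefore cannot be told apart. The Adipoq promoter drives Cre in adipocytes, so the other cells of the gland are taken to keep Tsc1. Recombination in each cell type was not measured here.

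Triglyceride is built on glycerol-3-phosphate in the endoplasmic reticulum. GPAT enzymes add the first fatty acid, AGPAT enzymes add the next and give phosphatidate, lipins remove the phosphate to give diacylglycerol, and DGAT enzymes add the last fatty acid. In the lactating gland the secretory epithelium uses this pathway to make milk fat, while the adipocytes of the fat pad use it to store fat. In bulk tissue, fewer cells of a type and less RNA per cell cannot be told apart.

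The deposited estimates count reads on coding sequences, and the main transcripts of Lpin1, and those of Lpin3, differ there by a single stretch each. Both stretches are shown because the division of reads between these transcripts rests on them. They are read from GRCm38 on the coding strand, 5′ to 3′, with the stretch in capitals and 15 bases of the adjoining coding sequence on each side in lower case.
Lpin1 exon 6: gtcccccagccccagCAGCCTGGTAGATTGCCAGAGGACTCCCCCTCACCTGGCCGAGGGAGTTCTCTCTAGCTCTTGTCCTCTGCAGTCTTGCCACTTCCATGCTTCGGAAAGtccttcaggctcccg
Lpin3 exon 12: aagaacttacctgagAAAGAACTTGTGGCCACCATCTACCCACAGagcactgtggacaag
The Lpin1 exon lies at chr12:16571164-16571262 on the minus strand, is 99 bases long, adds 33 codons without shifting the frame, and is present in Lpin1-202 and absent from Lpin1-204. An exon of this kind is known to separate the longer beta form of lipin 1 from the alpha form. The Lpin3 stretch lies at chr2:160901628-160901657 on the plus strand, is 30 bases long, adds 10 codons, and is present in Lpin3-204 and absent from Lpin3-203. Whether it is the whole of exon 12 or only a part of it is not told apart here. Between them, the 10 genes have 34 transcripts in the files, of which 26 received at least 1 read in a library.

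Depth ran from 25817975 to 37894237 estimated reads per library. Tsc1 was measured at 10.1 ± 1.33 CPM (estimated reads scaled to library size; SD, n = 6) in the knockout libraries against 10.7 ± 1.11 CPM (SD, n = 5) in the wild-type group, a log2 difference of -0.09 ± 0.11 (SE; edgeR adjusted p = 0.772). This whole-gland value does not tell cell types apart. The summed level of 12 adipocyte markers was 890 to 1291 CPM in the wild-type group against 1423 to 2086 CPM with Cre, ranges that did not overlap, with 0 of 12 past an edgeR adjusted p of 0.05, against 0.055% of all genes. Of these 12 markers, 11 were above 0 in their log2 difference, with a median of 0.37, and 7 were higher at an unadjusted edgeR p of 0.05, against 6.31% of all genes. The 10 markers of secretory epithelium summed to 418592 to 609936 CPM in the knockout group and to 526692 to 753275 CPM in the wild-type group. All 10 had a log2 difference below 0, with a median of -0.26, and 0 of 10 passed either edgeR threshold. Of the defining markers, Adipoq differed by a log2 value of 0.40 ± 0.11 (SE; edgeR adjusted p = 0.263) and Csn2 by -0.27 ± 0.13 (SE; edgeR adjusted p = 0.415), and both were detected in every library. Skeletal muscle markers summed to over 100 CPM in 4 libraries: 2835 CPM in Knockout 1, 417 CPM in Knockout 2, 288 CPM in Wild-Type 1 and 200 CPM in Wild-Type 4. In the other libraries they ranged from 2.48 to 52.4 CPM. The 7 macrophage markers summed to 32.3 to 65.5 CPM (knockout) against 46 to 81.4 CPM (wild-type), and the 7 myoepithelial markers to 539 to 757 and 436 to 794 CPM. Acta1, the skeletal muscle actin, ran from 0.157 to 350 CPM over the 11 libraries.

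No member differed between the genotypes at the threshold used for all genes. In the edgeR quasi-likelihood fit, 0 of the 10 members passed an adjusted p of 0.05, and their adjusted p-values lay between 0.341 and 0.954. Over the 12716 genes tested, 7 passed, which is 0.055%, with 0.0472% higher and 0.00786% lower in knockout libraries, so that 0 of 10 is near the background. At an unadjusted p of 0.05, 1 of 10 members was called, Lpin1, against 12.4% of all genes. By DESeq2, 0 of 10 members passed an adjusted p of 0.05, against 1.09% of the genes to which it gave one. Estimates were above 0 for 4 members and below 0 for 6, with a median log2 difference of -0.10, against -0.01 over all genes tested. In limma on TPM, where the median over all genes was 0.17, 8 of 10 were above 0, with a median of 0.14, and Agpat1, Agpat2, Lpin3 and Dgat2 changed sign. The libraries of the 2 groups overlapped for every one of the 10 members, whereas 1.32% of all genes had groups that did not overlap.

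**Figure D1:**
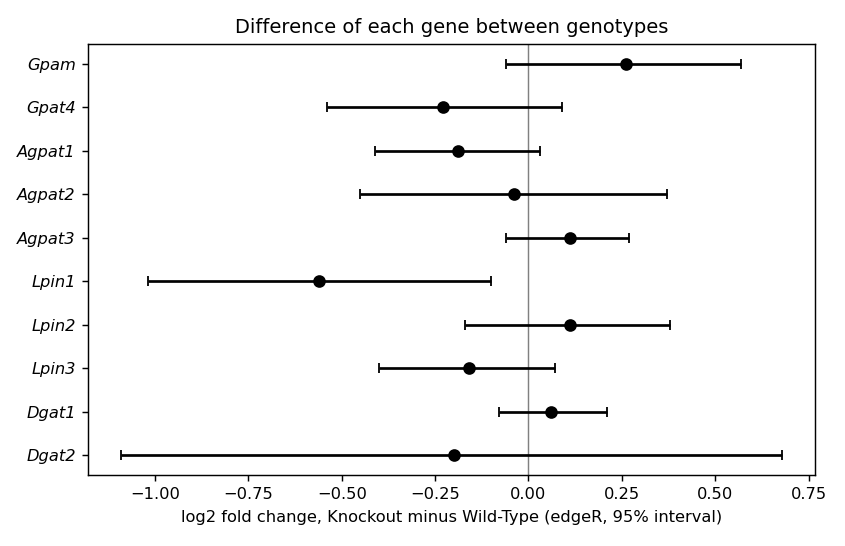
Log2 difference of each member, knockout minus wild-type, with its 95% confidence interval from the edgeR fit. The interval of Lpin1, from -1.02 to -0.10, leaves out 0, and that of Dgat2, from -1.09 to 0.68, is the widest of the 10.

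Levels of different genes are compared per coding length, as TPM (reads scaled per length and library) over transcripts of at least 300 bases. By their median over the 11 libraries the order was Gpat4 (41.5 TPM), Agpat1 (40.1), Agpat2 (20.3), Dgat1 (18.3), Lpin1 (17.1), Dgat2 (10.5), Agpat3 (7.25), Gpam (6.58), Lpin3 (1.21) and Lpin2 (0.471). Lpin2 and Lpin3 stood apart at the low end: the ranges of Gpam and Lpin3, and of Lpin3 and Lpin2, did not overlap. All other neighbours in the order overlapped in their ranges. Gpat4 was above Agpat1 in 8 of 11 libraries and Dgat1 above Lpin1 in 6 of 11, so the order within those pairs changed between libraries. The order depends on the length limit. Over all transcripts the median of Agpat1 was 52.8 TPM, above the 41.5 TPM of Gpat4, and that of Dgat2 was 11.7 TPM. Agpat3 moved the most. Over all its transcripts the knockout level was 41.9 ± 10.4 TPM (SD, n = 6) and the wild-type level 33.3 ± 8.94 TPM (SD, n = 5), and with the limit these were 8.31 ± 1.16 and 6.97 ± 2.09 TPM. Most of the excess lies in Agpat3-209, a transcript of 159 bases with an effective length of 5 bases, which held 2.51% of the reads of Agpat3 and 66.7% of its TPM.

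The first step is shared by Gpam, the acyltransferase of the mitochondrial outer membrane, and Gpat4, the enzyme of the endoplasmic reticulum whose loss in mice is known to deplete milk fat. Gpam (ENSMUSG00000024978; GRCm38, chr19:55067268-55127238, minus strand) was measured at 33.4 to 47.8 CPM in the knockout libraries, with a median of 41.3 CPM. The wild-type values were 43.8, 23.2, 35.3, 38.5 and 28.8 CPM for replicates 1 to 5. Wild-Type 2 and Wild-Type 5 lay below every knockout library, and the other three lay within the knockout range. Those 2 libraries also had the highest summed macrophage markers of the series, 80.8 and 81.4 CPM against 32.3 to 65.5 CPM in the other 9, and the part of this in the level of Gpam was not tested. The knockout mean was 40.5 ± 4.78 CPM (SD, n = 6) against 33.9 ± 8.1 CPM (SD, n = 5), giving a log2 difference of 0.26 ± 0.15 (SE; edgeR adjusted p = 0.5). It was 0.15 without Wild-Type 2, 0.55 in limma on TPM, and 0.54 without the 4 muscle-rich libraries (edgeR unadjusted p = 0.00476, adjusted p = 0.163).

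Gpat4 (ENSMUSG00000031545; chr8:23171265-23208346, minus strand) was measured at 97.8 to 166 CPM in knockout libraries, with a median of 121 CPM. In wild-type libraries 1 to 5 it was measured at 186, 140, 157, 128 and 134 CPM. The lowest 3 values of the series, 97.8, 106 and 115 CPM, were Knockout 2, Knockout 1 and Knockout 6, and the highest was Wild-Type 1. The means were 127 ± 26.9 CPM (SD, n = 6) and 149 ± 23.2 CPM (SD, n = 5), and the log2 difference was -0.23 ± 0.15 (SE; edgeR adjusted p = 0.548). It was -0.03 without the 4 muscle-rich libraries, -0.13 without Wild-Type 1 and -0.00 in limma on TPM.

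Taken as parts of 1 step, the GPAT genes differed in their balance when all 11 libraries were used. Gpam made up 14 ± 1.93% (SD, n = 6) of the summed TPM of Gpam, Gpat2, Gpat3 and Gpat4 in knockout libraries, against 9.87 ± 1.82% (SD, n = 5) without Cre, and the remainder was mostly Gpat4, with 83.7 ± 2.08% and 88.9 ± 1.62%. The knockout shares of Gpam were 12.6, 16.8, 13.6, 13.2, 12.1 and 16% for replicates 1 to 6, and the wild-type shares were 10.3, 7.39, 9.82, 12.4 and 9.39% for replicates 1 to 5. A single pair broke the separation, with Wild-Type 4 above Knockout 5. Gpam-203, a transcript of 374 bases with an effective length of 96 to 107 bases, held 0.165% of the reads of Gpam and 2.97% of its TPM. It had 13 reads in Knockout 5, 8 in Knockout 6 and 0 in the other 9 libraries. The share of Gpam without this transcript was not computed. The difference of 4.18 percentage points had an exact two-sided permutation p of 0.00649, where the smallest possible is 0.00216, and of 0.026 after Benjamini-Hochberg adjustment over the 4 shares tested. The call held in the authors' deposited table (6.67 points, exact permutation p = 0.00649, adjusted 0.026) and with the members alone in the sum (4.38 points, adjusted 0.026). The limit of 300 bases keeps Gpam-203 and left every share of this step unchanged (4.18 points, adjusted 0.026), so it adds no separate check. The call was lost in other settings. Leaving out each library in turn gave 3.56 to 4.82 points, with exact permutation p from 0.00476 to 0.0159 and adjusted p from 0.019 to 0.0635, and it stayed under 0.05 only without Knockout 5 or Wild-Type 4. With estimated counts in place of TPM the difference was 5.79 points (exact permutation p = 0.0216, adjusted 0.0866). Without the 4 libraries rich in skeletal muscle transcripts it was 4.86 points (exact permutation p = 0.0286, adjusted 0.114, the smallest those 7 libraries allow). A share does not say which of the genes moved. The adipocyte marker sum, given above, was also higher in every knockout library, and the lowest 2 shares were those of Wild-Type 2 and Wild-Type 5, with the highest macrophage sums. The part of either in the share was not tested.

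**Figure D2:**
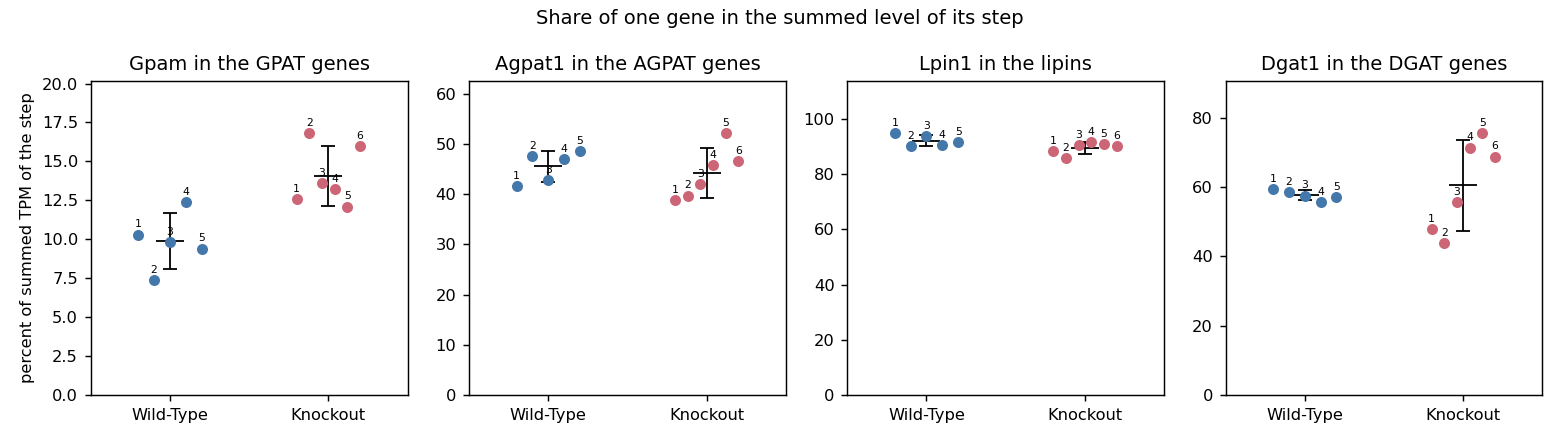
Percent of the summed TPM of each step held by Gpam, Agpat1, Lpin1 and Dgat1, with 1 numbered point per library and the mean ± SD of each group in black. Gpam took 12.1 to 16.8% of its step with Cre against 7.39 to 12.4% without, and the Dgat1 share spread from 43.9 to 75.5% among knockout libraries but only from 55.6 to 59.4% among wild-type ones.

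None of the AGPAT members passed the test. Agpat1 (ENSMUSG00000034254; chr17:34604262-34613449, plus strand), a widely expressed enzyme of the endoplasmic reticulum, was measured at 52.8 to 77.6 CPM in knockout libraries, with a median of 59.9 CPM, and at 68.5, 79.5, 78.7, 66.7 and 68.4 CPM in wild-type libraries 1 to 5. The lowest 4 values of the series were all knockout libraries, while Knockout 3 and Knockout 5 lay within the wild-type range. The log2 difference was -0.19 ± 0.10 (SE; edgeR adjusted p = 0.477).

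Agpat2 (ENSMUSG00000026922; chr2:26593057-26604417, minus strand) is prominent in fat tissue, and its loss is known to cause congenital lipodystrophy. Its knockout values were 38, 43.7, 30.7, 25.5, 19.5 and 25.1 CPM for replicates 1 to 6, with a median of 28.1 CPM, and its wild-type values were 26.1, 37, 27.2, 31.7 and 34.4 CPM for replicates 1 to 5. The knockout libraries held both the highest 2 and the lowest 3 values of the series. The means were close, 30.4 ± 9.01 CPM (SD, n = 6) and 31.3 ± 4.65 CPM (SD, n = 5), and the log2 difference was -0.04, with a 95% interval from -0.45 to 0.37 (edgeR adjusted p = 0.954). Its sign was not stable: it ranged from -0.17 without Knockout 2 to 0.07 without Knockout 5, and was above 0 in 4 of 11 such fits. Without the 4 muscle-rich libraries it was -0.37 (edgeR unadjusted p = 0.0464, adjusted p = 0.31).

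Agpat3 (ENSMUSG00000001211; chr10:78269178-78352489, minus strand), an isoform with a preference for polyunsaturated acyl groups, spanned 15 to 17 CPM among knockout libraries against 12.8 to 16.2 CPM among wild-type ones. The difference of 0.11 on the log2 scale had a 95% interval from -0.06 to 0.27 (edgeR adjusted p = 0.597), and was 0.33 in limma on TPM and 0.05 without Wild-Type 3. Agpat1 made up 44.2 ± 5% (SD, n = 6) and 45.5 ± 3.09% (SD, n = 5) of the summed TPM of Agpat1 to Agpat5, a difference of -1.33 points with an exact two-sided permutation p of 0.61, or 0.643 adjusted over the 4 shares. This share is over all transcripts, Agpat3-209 included; with the limit of 300 bases it was 52.6 ± 6.73% and 54.8 ± 2.69%, a difference of -2.25 points (exact permutation p = 0.513). On the opposite strand, Agpat1 overlaps Egfl8, and Agpat2 overlaps Egfl7 and Gm20532, which are also listed in the files. Of the 31-base words in the coding sequences of the 10 members, 0 occurred in the coding sequence of another gene, on either strand.

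**Figure D3:**
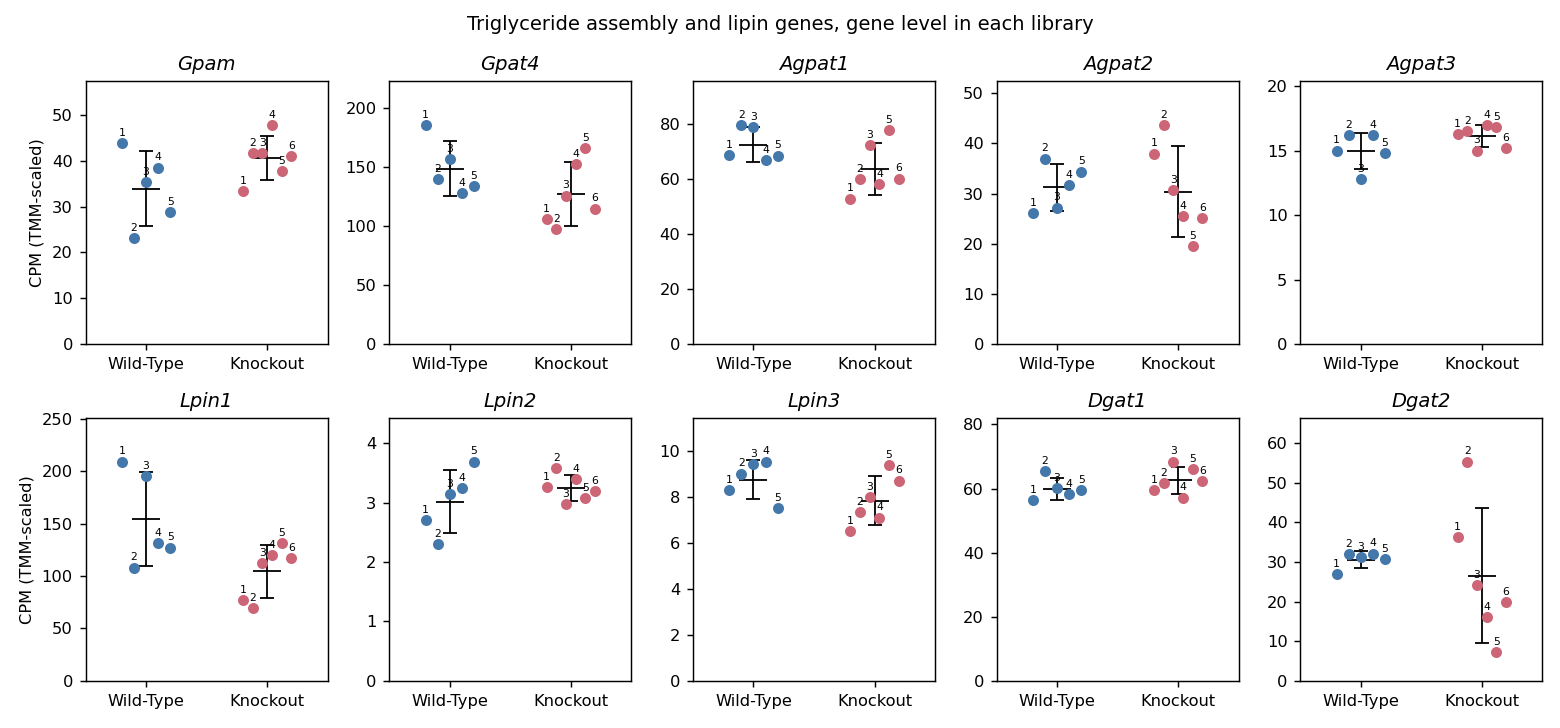
CPM of the 10 members in each library (points, numbered by replicate), on a linear axis from 0 in each panel, with wild-type libraries on the left, knockout libraries on the right, and the mean ± SD in black. The groups overlap for every member, and Dgat2 spans 7.34 to 55.3 CPM with Cre against 26.9 to 32.1 CPM without.

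Among the lipins, Lpin1 had the highest level, and with all 11 libraries its estimated log2 difference in the edgeR fit was the largest in size of the 10 members. Without the 4 muscle-rich libraries those of Dgat2 (-0.88), Gpam (0.54) and Agpat2 (-0.37) were larger in size than its -0.25. Lpin1 (ENSMUSG00000020593; chr12:16535669-16610966, minus strand) encodes the phosphatidate phosphatase whose loss causes the lipodystrophy of the fld mouse. Its knockout values were 77.2, 69.3, 112, 120, 131 and 117 CPM for replicates 1 to 6, and its wild-type values were 209, 108, 195, 131 and 127 CPM for replicates 1 to 5. Wild-Type 1 and Wild-Type 3 lay above every knockout library, Knockout 1 and Knockout 2 lay below every wild-type library, and the remaining 7 libraries lay between 108 and 131 CPM. The knockout mean of 104 ± 25.1 CPM (SD, n = 6) was 0.678 times the wild-type mean of 154 ± 44.7 CPM (SD, n = 5) in the fit, a log2 difference of -0.56 ± 0.21 (SE), with an unadjusted edgeR p of 0.0207 and an adjusted p of 0.341. Knockout 1 and Knockout 2 also had the lowest sums of secretory markers in their group, 418592 and 481329 CPM, and its highest sums of muscle markers. Wild-Type 1, which was also rich in muscle transcripts at 288 CPM, had the highest Lpin1 of the series. The part of tissue composition in these values was not tested. Without the 4 libraries rich in muscle transcripts the log2 difference of Lpin1 was -0.25 ± 0.18 (SE; edgeR adjusted p = 0.573), a smaller difference than with all 11.

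Lpin2 (ENSMUSG00000024052; chr17:71182560-71249817, plus strand) and Lpin3 (ENSMUSG00000027412; chr2:160880670-160906002, plus strand) encode the related phosphatases, and both were measured on few reads, 55 to 147 and 214 to 314 per library. The knockout values of Lpin2, from 2.97 to 3.58 CPM, lay within its wild-type range of 2.3 to 3.69 CPM, a log2 difference of 0.11 ± 0.13 (SE; edgeR adjusted p = 0.772). Lpin3 ranged from 6.51 to 9.4 CPM (knockout) and from 7.51 to 9.54 CPM (wild-type), a log2 difference of -0.16 ± 0.11 (SE; edgeR adjusted p = 0.566). Per length, Lpin1 made up 89.6 ± 2.18% (SD, n = 6) of the summed lipin TPM with Cre against 92.2 ± 2% (SD, n = 5) without. That difference of -2.6 points had an exact two-sided permutation p of 0.0952, or 0.19 adjusted over the 4 shares, and without the 4 muscle-rich libraries it was -0.962 points (exact permutation p = 0.429).

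No lipin transcript passed the test. Of the 16 member transcripts tested, 0 passed an edgeR adjusted p of 0.05 and 2 had an unadjusted p under 0.05, against 0.00537% and 8.75% of the 18620 transcripts tested. Both were transcripts of Lpin1. Lpin1-202, which holds the 99-base exon printed above, differed by a log2 value of -0.52 ± 0.23 (SE; edgeR adjusted p = 0.561), and Lpin1-204, which lacks it, by -0.68 ± 0.27 (SE; edgeR adjusted p = 0.521). Lpin1-202 took 79.7 ± 3.91% (SD, n = 6) of the reads of the gene with Cre against 77.5 ± 7.36% (SD, n = 5) without. Its share lay between 70.9 and 87.2% in all 11 libraries, with both of these extremes in the wild-type group. Without the 4 libraries rich in muscle transcripts, the log2 difference was -0.11 ± 0.20 (SE) for Lpin1-202 and -0.74 ± 0.25 (SE) for Lpin1-204, with 0 member transcripts past an edgeR adjusted p of 0.05.

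In Lpin3 the transcript without the 30-base stretch, Lpin3-203, took 73.6 ± 10.8% (SD, n = 6) and 78 ± 8.52% (SD, n = 5) of the reads. In Lpin2 the 2 transcripts with reads could not be separated in every library. The coding sequence of Lpin2-204, at 2682 bases, is the end of that of Lpin2-203, at 2796 bases, so only 114 bases tell them apart. Lpin2-204 was estimated at 0 reads in Wild-Type 1, 2 and 3, and Lpin2-203 at 0 reads in Knockout 4, Knockout 5 and Wild-Type 4. These estimates moved between all and none of the gene without a matching change in its sum. In a test of transcript usage within genes (edgeR diffSpliceDGE), 0 of the 5 member genes with 2 or more tested transcripts passed an adjusted p of 0.05 and 0 had an unadjusted p under 0.05, with p from 0.314 to 0.944. Over all 3898 genes tested for usage, 0.077% passed the adjusted and 1.26% the unadjusted threshold.

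**Figure D4:**
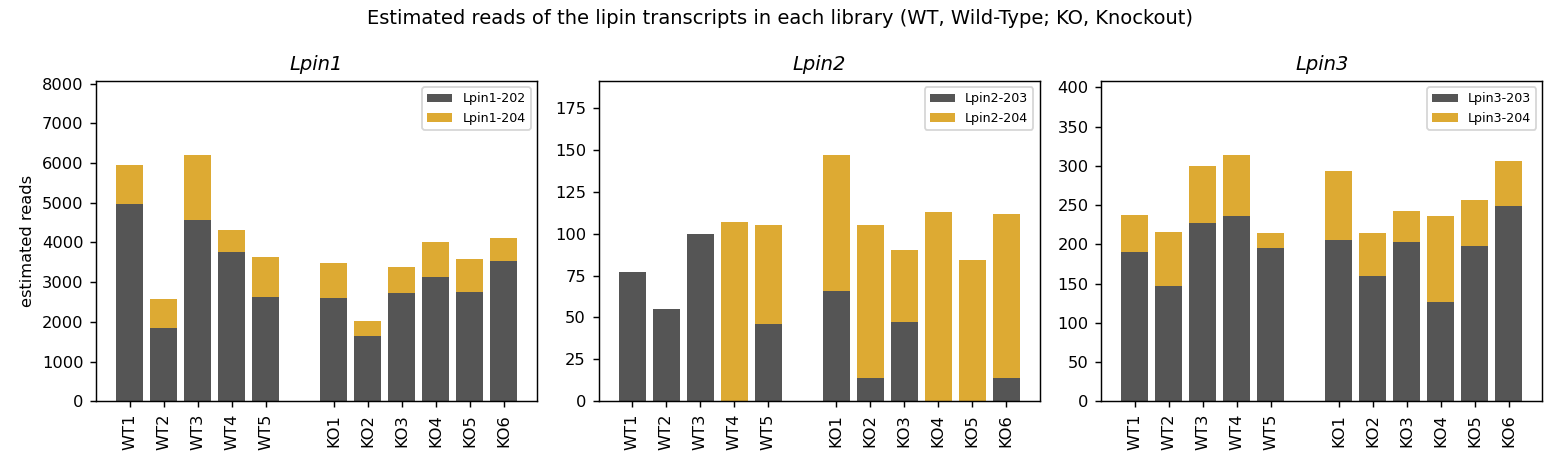
Estimated reads of the main transcripts of Lpin1, Lpin2 and Lpin3, stacked, with 1 bar per library. Lpin1-202 takes 70.9 to 87.2% of the reads of its gene throughout, while Lpin2-204 takes from 0 to 100%.

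The last step showed a contrast in spread between its enzymes. Dgat1 (ENSMUSG00000022555; chr15:76502015-76511953, minus strand), the acyltransferase without which mice are known to fail to lactate, had the smallest SD of log2 CPM of the 10 members over the 11 libraries, 0.09. Its knockout values spanned 57.2 to 68.4 CPM, and it was measured at 56.4, 65.4, 60.1, 58.3 and 59.5 CPM in wild-type libraries 1 to 5. The log2 difference was 0.06 ± 0.07 (SE), with a 95% interval from -0.08 to 0.21 (edgeR adjusted p = 0.746). In limma on TPM, where the median over all genes was 0.17, it was 0.29 ± 0.12 (SE; adjusted p = 0.278).

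Dgat2 (ENSMUSG00000030747; chr7:99153658-99182719, minus strand), an unrelated protein that works on newly made fatty acids at lipid droplets, had the largest, 0.75. Its knockout values were 36.3, 55.3, 24.1, 16.1, 7.34 and 19.8 CPM for replicates 1 to 6, on 200 to 1636 reads. Its wild-type values were 26.9, 31.9, 31.2, 32.1 and 30.7 CPM for replicates 1 to 5. Knockout 1 and Knockout 2 lay above every wild-type library and the other 4 knockout libraries lay below every one, so that no knockout library fell inside the wild-type range. The knockout mean was 26.5 ± 17 CPM (SD, n = 6) against 30.5 ± 2.13 CPM (SD, n = 5), and the log2 difference was -0.20 ± 0.40 (SE; edgeR adjusted p = 0.865). It was -0.55 without Knockout 2 and -0.00 without Knockout 5. Knockout 1 and Knockout 2 are the knockout libraries rich in muscle transcripts, and without the 4 muscle-rich libraries the log2 difference was -0.88 ± 0.35 (SE; edgeR adjusted p = 0.288). The share of Dgat1 in the DGAT step was 60.5 ± 13.2% (SD, n = 6) and 57.6 ± 1.45% (SD, n = 5), a difference of 2.85 points with an exact two-sided permutation p of 0.643, adjusted over the 4 shares also 0.643. The shares are over all transcripts; with the limit of 300 bases that of Dgat1 was 65.1 ± 14.8% and 57.6 ± 1.45%, a difference of 7.45 points (exact permutation p = 0.307). Over all transcripts, without the 4 muscle-rich libraries, it was 10.1 points (exact permutation p = 0.143).

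Some members varied together over the 11 libraries. Of the 45 pairs of members, log2 CPM of Agpat2 and Dgat2 had the highest correlation, with Pearson r = 0.90 and Spearman rho = 0.91 (permutation p = 8e-05 and 0.00022, and 0.0036 and 0.0099 after Benjamini-Hochberg adjustment over the 45 pairs). Without the 2 libraries farthest from the median of Agpat2, r was 0.75, and within the 6 knockout libraries it was 0.98. Gpat4 and Lpin1 had r = 0.86 and rho = 0.84 (permutation p = 0.00084 and 0.00231, adjusted 0.0189 and 0.052), with r = 0.69 without the 2 libraries farthest from the median of Gpat4 and 0.86 within the knockout group. No other pair had an adjusted p under 0.05. High values of r within the knockout group were not confined to these pairs. There r was -0.95 for Agpat2 and Lpin1, -0.93 for Gpat4 and Dgat2, -0.91 for Lpin1 and Dgat2, and -0.88 for Gpat4 and Agpat2. These values share their library, its depth and its scaling factor, and no value is given within the wild-type group, which has 5 libraries. Knockout 1 and Knockout 2 were the highest 2 libraries of the series for Agpat2 and Dgat2, and the lowest 2 for Gpat4 and Lpin1. The part of their tissue composition in these correlations was not tested.

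**Figure D5:**
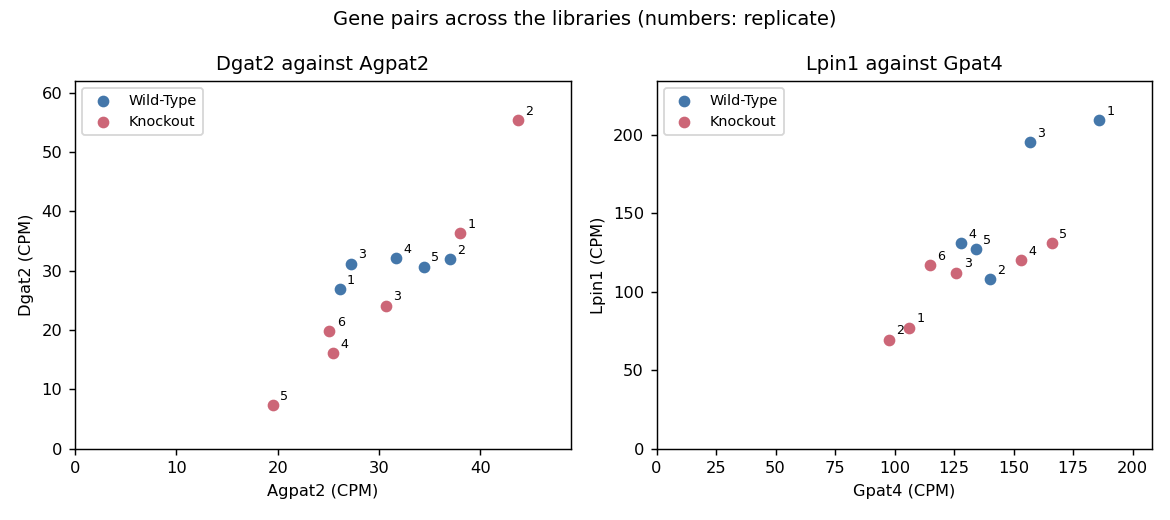
CPM of Dgat2 against Agpat2, and of Lpin1 against Gpat4, on linear axes, with 1 numbered point per library coloured by genotype. Knockout 1 and Knockout 2 lie at the high end of the first pair and the low end of the second; on the log2 scale Pearson r is 0.90 and 0.86.

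The genes whose pattern was most like that of the 2 most variable members were taken by the smallest root mean square difference of centred log2 CPM over the 11 libraries, among the 5276 genes with a mean of at least 10 CPM that are not members. For Dgat2, whose SD over the libraries was 0.75, these were Nfil3 at 0.36, Arid5a at 0.44 and Khdrbs3 at 0.44. For Lpin1, whose SD was 0.47, they were Egf at 0.19, Plekhf1 at 0.22 and Eef2k at 0.22. Dgat2 and Nfil3 lay -1.79 and -1.30 from their means in Knockout 5 and 1.11 and 0.50 in Knockout 2, but on opposite sides in Knockout 6, at -0.36 and 0.33, and in Wild-Type 1, at 0.07 and -0.21.

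Other genes of the pathway gave 0 of 31 past an edgeR adjusted p of 0.05, of 34 listed, with Gpat2, Mogat2 and Fitm1 too low to test. At an unadjusted p of 0.05, 7 were higher and 4 lower in knockout libraries, against 6.31% and 6.08% of all genes, and the median log2 difference of the 31 was 0.01, against -0.01 over all genes. Fitm2, a protein of the endoplasmic reticulum that takes part in forming lipid droplets, had the smallest p of the list. It was measured at 2.88 to 3.54 CPM in the wild-type group against 3.86 to 4.88 CPM with Cre, ranges that did not overlap, with a log2 difference of 0.46 ± 0.11 (SE; edgeR adjusted p = 0.218). By DESeq2 its adjusted p was 0.0433.

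Acsl3, an acyl-CoA synthetase of the endoplasmic reticulum and lipid droplets, had a log2 difference of 0.49 ± 0.14 (SE; edgeR adjusted p = 0.263). Dgka, a kinase that turns diacylglycerol back into phosphatidate, had one of -0.35 ± 0.11 (SE; edgeR adjusted p = 0.274), and of -0.09 in limma on TPM. Abhd5, the activator of adipose triglyceride lipase, had one of 0.27 ± 0.10 (SE; edgeR adjusted p = 0.313), and of 0.48 in limma on TPM. The adipocyte marker sum was higher in the same libraries, and its part in these values was not tested.

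Of 15 regulators of transcription linked to these genes, 14 were tested and 0 passed an edgeR adjusted p of 0.05, against 0.055% of all genes, with a median log2 difference of -0.02. At an unadjusted p of 0.05, 1 of 14 was called, against 12.4% of all genes. It was Ppara, the fatty acid receptor, with a log2 difference of 0.53 ± 0.23 (SE; edgeR adjusted p = 0.384), or 0.32 in limma on TPM, on 11 to 57 reads per library. Scap, the escort protein of the SREBP factors, had one of -0.11 ± 0.06 (SE; edgeR adjusted p = 0.486). Foxo1, a factor held back by insulin signalling, had one of -0.27 ± 0.17 (SE; edgeR adjusted p = 0.533), and Nr1h2, an oxysterol receptor, one of -0.07 ± 0.06 (SE; edgeR adjusted p = 0.675). The signs of Scap, Foxo1 and Nr1h2 changed with the processing.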

How the data were processed

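The authors deposited transcript estimates made with Salmon 1.3.0 against GRCm38.p6, and a normalized gene table, per the submitters' processing notes, which also name DESeq2 1.28.1. The estimated counts and TPM per transcript are as deposited; listed lengths matched coding lengths within 3 bases for 56929 of 56929 transcripts, so UTR reads are not counted. The library kit was directional, per the labels' protocols; the strand setting of the counting is not given in the sources used here. The normalized signal of the authors' gene table was used in 1 alternative.

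Estimated counts were summed per gene with GENCODE names (57452 of 58204 transcripts matched, and 752 unmatched transcripts held 0.195 to 0.265% of reads) and rounded to whole numbers. edgeR 4.0.16 (R 4.3.3) fitted quasi-likelihood models with TMM scaling and its default filter, with Benjamini-Hochberg adjustment over all features. The biological coefficient of variation was 24.1%. CPM are scaled to the TMM-adjusted library size. Shares used exact permutation tests (SciPy 1.17.1). Alternatives used DESeq2 1.42.0, limma 3.58.1, other scaling and filters, a replicate block, and fewer libraries. The procedures were tested on simulated data. Reads carry no molecular identifiers, and the labels do not say whether replicates are separate animals, so p-values measure only the spread between these libraries, which may be technical.

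The members and gene lists were chosen with earlier results of these data known. Named were all members, the 4 genes with the smallest p in each of the pathway and regulator lists, 4 defining markers (1 of them, with its marker list, is not reported here), member transcripts with at least 10% of their gene's reads, and 3 genes most like each of the 2 most variable members. Gpat3 and Agpat5 in the closing section were chosen after their values were seen. No protein or promoter sequence was used here.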

Additional observations from a re-analysis of the deposited data

Results flagged for a closer look

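Wild-Type 1 stood apart from the rest of its group for Dgat2, at 26.9 CPM against 30.7 to 32.1 CPM in the other 4 wild-type libraries. Its gap to the nearest library was a larger part of the group's range than Dixon's 95% limit allows. Across 56 sets of values 1 was found, where chance gives about 2.8. All other values of this group for Dgat2 lay close together, and Wild-Type 1 was still within the knockout range of 7.34 to 55.3 CPM.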

How the results depend on the processing

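The members gave 0 calls under all 20 alternatives at gene level, the lowest adjusted p being 0.163 (edgeR, Gpam, without the 4 muscle-rich libraries, with a log2 difference of 0.54). Leaving those out was chosen after seeing the data; without them the log2 differences were -0.25 for Lpin1, -0.37 for Agpat2, -0.03 for Gpat4 and -0.88 for Dgat2. Over the alternatives Gpam ranged from 0.15 to 0.55, Lpin1 from -0.67 to -0.25, and Dgat2 from -0.88 to 0.09, with -0.41 under the replicate block, -0.55 without Knockout 2 and -0.00 without Knockout 5. The cause of these changes was not tested.

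The count of all genes past the threshold (7) was 146 by DESeq2, 3 by limma on TPM, 23 without the muscle-rich libraries and 0 to 28 when 1 library was left out: 0 without Knockout 3 or Knockout 6, 2 without Knockout 1 or Wild-Type 3, 28 without Knockout 2, 13 without Wild-Type 1 or Wild-Type 5, and 14 without Wild-Type 4. For transcripts (1) it was 5 with RLE size factors, 3 without the muscle-rich libraries and 0 to 7 with 1 library left out: 0 without Knockout 3, Knockout 4 or Wild-Type 3, 2 without Knockout 1, Wild-Type 2 or Wild-Type 5, 4 without Wild-Type 4 and 7 without Knockout 2. For usage (3) it was 15 without the low-count filter and 1 to 8 with 1 library left out: 1 without Knockout 1, 2, 3 or 5, and 8 without Wild-Type 3, 4 or 5. With the replicate block, 0 genes, 0 transcripts and 0 members passed in edgeR; same-numbered libraries had correlations from -0.223 to 0.187, with 1 of 5 above 0.1, and 1 knockout library correlated best with its own number, so the numbers were not taken to pair mice.

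The share of Gpam, past an adjusted exact permutation p of 0.05 with all libraries (4.18 points), kept its call in the authors' table (6.67 points, adjusted p = 0.026) and with members alone (4.38, 0.026). The limit of 300 bases changed no share of this step (4.18, 0.026). The difference was 5.79 points (adjusted p = 0.0866) with estimated counts, 4.86 (0.114) without the muscle-rich libraries, where it could not pass, and 3.56 to 4.82 (0.019 to 0.0635) with 1 library left out, past 0.05 only without Knockout 5 or Wild-Type 4. The share of Lpin1 differed by -1.85 points in the authors' table (exact permutation p = 0.0455, adjusted 0.0909) and by -0.962 (p = 0.429) without the muscle-rich libraries. The share of Agpat1 was 0.335 points without the muscle-rich libraries, and that of Dgat1 ranged from -0.14 to 6.17 with 1 library left out, below 0 without Knockout 5. In limma on TPM, where the median of all genes was 0.17, signs turned for Agpat1 (0.14), Agpat2 (0.13), Lpin3 (0.05), Dgat2 (0.09), Scap (0.27) and Nr1h2 (0.44). With transcript length offsets they turned for Dgat2 (0.04), Scap (0.05) and Nr1h2 (0.20), and in the authors' table for Scap (0.06) and Nr1h2 (0.21). Foxo1 was 0.04 without the muscle-rich libraries. With 1 library left out, Agpat2 ranged from -0.17 to 0.07 and Lpin3-204 from -0.18 to 0.22. Depth limits Lpin2, with 55 to 147 reads per library.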

Other observations

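The spread of Dgat2 differed between the groups more than that of nearly all genes. Its SD of log2 CPM was 1.00 in knockout and 0.10 in wild-type libraries, a ratio of 9.53, and of 5284 genes with a mean of at least 10 CPM, 2 had a ratio this high, Dgat2 included, while the median ratio was 0.941. This measure was chosen after the values were seen and was not tested.

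Gpat3, the GPAT isoform of adipocytes, had a knockout mean of 2.93 ± 1.19 CPM (SD, n = 6) against 1.76 ± 0.578 CPM (SD, n = 5) without Cre, a log2 difference of 0.75 ± 0.28 (SE; edgeR adjusted p = 0.339). It made up 2.24 ± 1.14% of the GPAT step with Cre against 1.2 ± 0.498% without. The adipocyte marker sum was also higher in every knockout library, at 1423 to 2086 CPM against 890 to 1291 CPM. Its part in the level of Gpat3 was not tested. Agpat5, an acyltransferase of mitochondria, spanned 8.26 to 9.79 CPM among knockout and 8.53 to 13.1 CPM among wild-type libraries, a log2 difference of -0.25 ± 0.11 (SE; edgeR adjusted p = 0.379).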
